A study of Rattus norvegicus with 5 samples.

Results

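Endothelin, angiotensin-converting enzyme (ACE) and adrenomedullin genes were followed in the lungs of rats that had received EHC-93, dust from urban outdoor air, through the trachea. The genes considered were Edn1, Ednra, Ednrb, Ece1, Ace and Adm, and every probe set that the platform annotation pairs with any of them was taken. This gave 6 of 8740 probe sets, for 4 of the 6 genes, among 4736 genes named on the arrays: 1 for Edn1, 2 for Ece1, 1 for Ace, 1 listed for both Ace3 and Ace, and 1 for Adm. The annotation table used here names no probe set for the receptors Ednra and Ednrb, which were not analysed here. Because the probe set listed for Ace3 and Ace may read either gene, it is called the shared Ace3 and Ace probe set and is not counted as Ace.

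Lung RNA was hybridised to 5 one-colour arrays, 1 array per group, each with a pool of equal RNA amounts. The early array received RNA taken 2, 4 and 6 h after dust instillation, the intermediate array RNA from 15, 18 and 21 h, and the late array RNA from 24, 32 and 40 h. The sham array received RNA taken 2, 15 and 24 h after instilled saline, and the untreated array RNA from 3 rats with no instillation, so no dust array had a saline pool of its own hours. The labels used here give no strain, age or sex, nor the number of rats behind the instilled pools.

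Endothelin-1, the peptide encoded by Edn1, is made mainly by endothelial and epithelial cells as a long precursor, and endothelin-converting enzyme, encoded by Ece1, cuts its intermediate to the active form. The peptide then acts on the A receptor of smooth muscle, which constricts vessels and airways, and on the B receptor, which in lung endothelium also clears the peptide from blood. ACE, abundant on lung capillary endothelium, makes angiotensin II from angiotensin I and breaks down bradykinin. Adrenomedullin is a vasodilator peptide that acts through the receptor Calcrl with accessory Ramp proteins, and both Adm and Edn1 are known targets of low oxygen and of inflammatory signals.

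Of the genes measured, Edn1 is the one whose single probe set passed the fold rule used below on the early array, so the start of its gene is shown. The stretch runs from 250 bases before to 50 bases after the start that RefSeq gives, at chr17:22666638-22666937 on the minus strand of the rat build GRCr8. Capitals mark, in order from the left, the match to the GATA motif AGATAA (here as its reverse complement), to the hypoxia response core ACGTG (also reversed), to the AP-1-like motif TGACTNA and to the TATA motif TATAAA, searched on both strands; no match overlaps another.
Edn1: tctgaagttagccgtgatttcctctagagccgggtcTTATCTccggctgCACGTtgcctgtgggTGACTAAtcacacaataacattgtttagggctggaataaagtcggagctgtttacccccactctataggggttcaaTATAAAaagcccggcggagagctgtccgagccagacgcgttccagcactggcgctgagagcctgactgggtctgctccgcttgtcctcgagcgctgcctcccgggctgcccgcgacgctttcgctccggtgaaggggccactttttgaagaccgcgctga
Of 33469 rat promoter windows of the same length, 11.6% hold the GATA motif, 19.3% the hypoxia core, 13.5% the AP-1-like motif and 14.2% the TATA motif. In the windows of Ece1 and Adm none of these letters were found, and that of Ace held 1 match, to the TATA motif. Such matches describe the letters only.

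Values are intensities scaled so that all arrays share the same median. A probe set was called higher or lower on an exposed array where it lay 2-fold or more above, or 2-fold or more below, each of the 2 control arrays (sham and untreated). With 1 array per group these calls have no replicate check, and no error or p-value can be attached to them. Values under 172.53, the 40th percentile of all scaled values, were set to that floor for log2 differences; all 6 probe sets were above it on all 5 arrays. The arrays had 5191 to 5346 of the 8740 probe sets above the floor.

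Edn1 (M64711_at) stood out on the early array. Its scaled intensity was 895 in early, 340 in intermediate and 370 in late dust lung, against 395 in sham and 266 in untreated lung. The early reading was 2.27-fold the sham and 3.37-fold the untreated reading, and 2.63-fold the intermediate and 2.42-fold the late reading. The early array was thus apart from the other 4, which lay within a narrow band. Inside that band the intermediate and late readings fell between those of the controls, 0.860-fold and 0.938-fold the sham reading and 1.28-fold and 1.39-fold the untreated reading. The sham array read 1.49-fold the untreated array. Scaling the arrays to their 75th percentile put the early reading at 1.996-fold the sham reading, just under the call.

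Ece1, the endothelin-converting enzyme, gave a different size of difference in each of its probe sets. The probe set D29683_at read 8033 in early, 5094 in intermediate and 5964 in late dust lung, against 6611 in sham and 5937 in untreated lung. The early reading was 1.22-fold the sham and 1.35-fold the untreated reading, short of the call, while the intermediate reading was under both controls, at 0.770-fold and 0.858-fold. The second probe set, rc_AA956930_s_at, read 1079 in early, 298 in intermediate and 518 in late dust lung, against 318 in sham and 452 in untreated lung. Here the early reading was 3.39-fold and 2.39-fold the sham and untreated readings and was called higher. Both probe sets had the early array highest and the intermediate array lowest, an order that 6.17% of the 6188 probe sets above the floor on any array also had.

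ACE likewise depended on the probe set. The probe set named for Ace alone, U03734_at, read 6151 in early, 4978 in intermediate and 6563 in late dust lung, against 5207 in sham and 4938 in untreated lung. It spanned 1.33-fold from lowest to highest, the narrowest range of the 6 probe sets, with the late array highest at 1.26-fold the sham and 1.33-fold the untreated reading. The shared Ace3 and Ace probe set, L36664_s_at, spanned 5.58-fold, the widest range of the 6. It read 2011 in early, 404 in intermediate and 514 in late dust lung, against 360 in sham and 941 in untreated lung. The early reading was 5.58-fold the sham and 2.14-fold the untreated reading. The controls disagreed with each other here: sham was 0.383-fold untreated, and the intermediate array, at 1.12-fold sham, was 0.430-fold untreated.

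Adm, the precursor of adrenomedullin, read 597 in early, 403 in intermediate and 415 in late dust lung, against 364 in sham and 450 in untreated lung (D15069_s_at). The early array was highest, at 1.64-fold the sham and 1.33-fold the untreated reading, and did not reach the call. The intermediate and late readings lay between those of the controls.

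**Figure D1:**
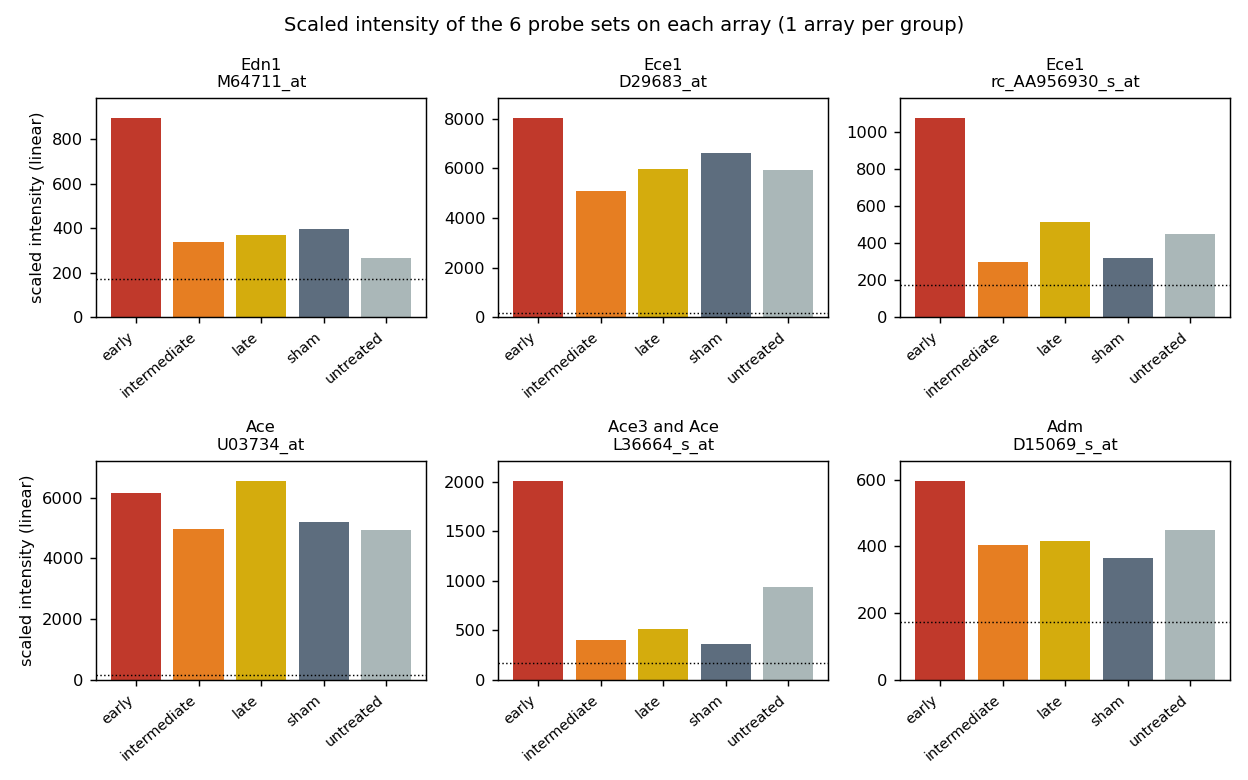
Scaled intensity (linear axis from 0) of each of the 6 probe sets on the early, intermediate, late, sham and untreated arrays, 1 bar per array and no error bars, since each group had 1 array; the dotted line is the floor of 172.53. The early bar is the highest in every panel except that of Ace U03734_at, where the late array is highest.

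On the early array 3 of the 6 probe sets were called higher and none lower; over all 6188 probe sets above the floor on at least 1 array, 3.17% were called higher and 0.452% lower. The 3 were those of Edn1, the second probe set of Ece1 and the shared Ace3 and Ace probe set. By the lower of the differences from both controls, they ranked 128, 110 and 163 of 6188, while Adm ranked 789, the first Ece1 probe set 1108 and Ace 1232. All 6 probe sets read above both controls, which held for 35.3% of the probe sets tested. In 5 of them the early array was the highest of all, which held for 22.8%.

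**Figure D2:**
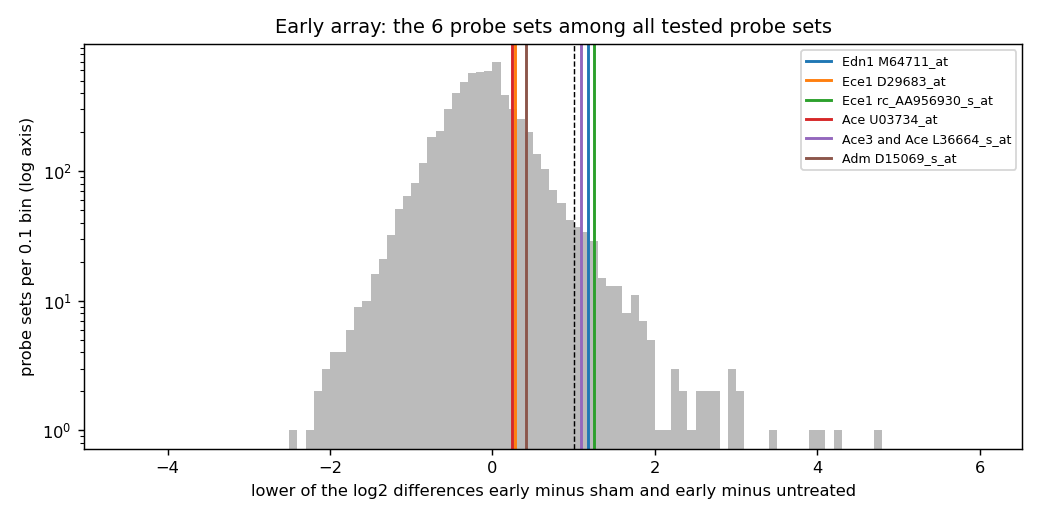
Number of probe sets (log axis, bins of 0.1) by the lower of the log2 differences early minus sham and early minus untreated, for the 6188 probe sets above the floor; coloured lines mark the 6 probe sets and the dashed line 2-fold. The lines of Edn1, the second Ece1 probe set and the shared Ace3 and Ace probe set lie just beyond 2-fold, and the other 3 lie between 0.24 and 0.41.

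The calls on the early array went along with a difference in the control transcripts of the array. The 5′ to 3′ signal ratio of beta-actin, which falls where RNA or its copy is incomplete, was 43.1% in early, 9.07% in intermediate and 19.6% in late dust lung, against 14.7% in sham and 24.4% in untreated lung. The 5′ probe set of beta-actin read 3.41-fold and 2.35-fold higher on the early array than on the sham and untreated arrays, and that of GAPDH 3.16-fold and 2.03-fold. The 3′ probe sets of the same transcripts differed less, 1.17-fold and 1.33-fold for beta-actin and 1.19-fold and 1.18-fold for GAPDH. Where the Ece1 probe sets lie along their transcript could not be settled here. None of the 6 probe sets had the exact array order of the beta-actin ratio. Only 1.33% of those tested had it, so its absence among 6 is uninformative. The ratio had the order early, untreated, late, sham, intermediate. Adm and the shared Ace3 and Ace probe set had the order early, untreated, late, intermediate, sham. The second Ece1 probe set had the order early, late, untreated, sham, intermediate, and the first early, sham, late, untreated, intermediate. Edn1 had the order early, sham, late, intermediate, untreated, and Ace the order late, early, sham, intermediate, untreated. The part of RNA completeness in these calls was not tested.

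Probe sets of the same gene often differed on the early array. Over 736 genes with at least 2 probe sets above the floor on all arrays, the spread of the log2 difference from the mean of both controls had a median of 0.36. For Ece1 it was 1.15, which 4.76% of these genes reached. Of 53 such genes with at least 1 probe set called higher, all probe sets were called for 13. Between the Ace probe set and the shared Ace3 and Ace probe set the difference was 1.51, although these need not read the same transcript.

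Neither on the intermediate nor on the late array was any of the 6 probe sets called in either direction, where 0.824% and 0.566% of all probe sets tested were higher and 0.339% and 0.953% lower. The log2 difference from the averaged controls was 0.07 for Edn1, -0.30 and -0.35 for the Ece1 probe sets, -0.03 for Ace, -0.53 for the shared Ace3 and Ace probe set and -0.01 for Adm on the intermediate array. For Edn1 the sign of this value depended on the scaling, from -0.10 to 0.07. On the late array it was 0.19 for Edn1, -0.07 and 0.45 for the Ece1 probe sets, 0.37 for Ace, -0.18 for the shared probe set and 0.04 for Adm, the last with a sign that depended on the scaling (-0.08 to 0.06). Thus Ace was the one of these probe sets that had its highest reading at 24 to 40 h, 1.33-fold its lowest. Its early reading was close to that, at 0.937-fold the late one.

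**Figure D3:**
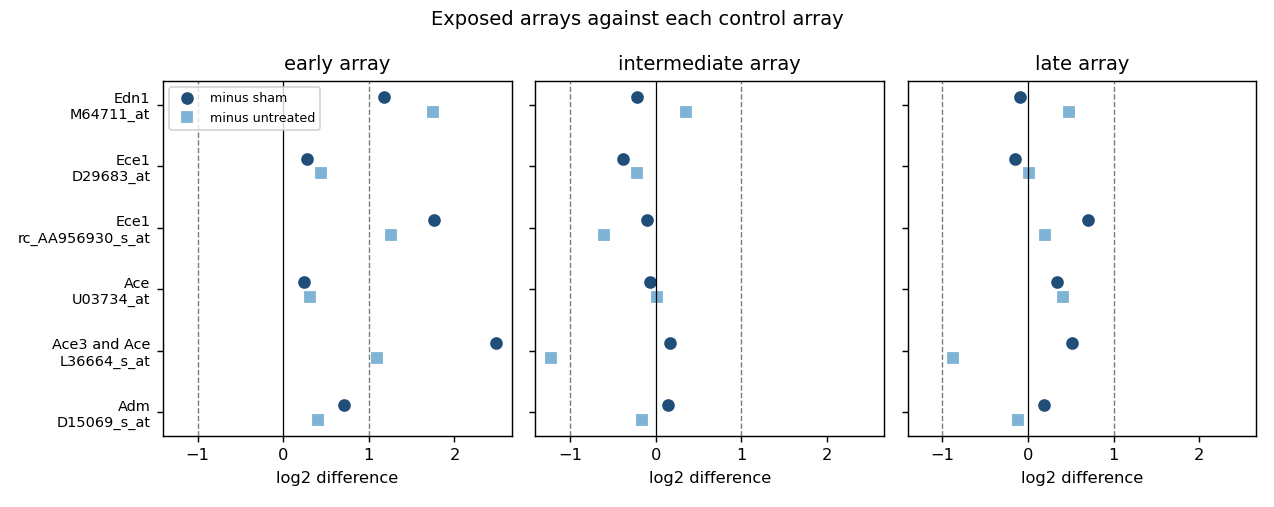
Log2 difference of the early, intermediate and late arrays from the sham array (circles) and from the untreated array (squares) for each of the 6 probe sets; dashed lines mark 2-fold in either direction. Both symbols pass the right-hand dashed line for Edn1, the second Ece1 probe set and the shared Ace3 and Ace probe set on the early array, and for no probe set on the later arrays.

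Set against the later dust arrays directly, the early array was at least 2-fold above both for the same 3 probe sets, where 2.57% of all probe sets tested were and 0.711% were below both. The shared Ace3 and Ace probe set read 4.97-fold the intermediate and 3.91-fold the late reading, and the second Ece1 probe set 3.63-fold and 2.08-fold. The second Ece1 probe set lost its place with 75th percentile scaling and with quantile normalization, and Edn1 with the floor at the 60th percentile. No probe set differed 2-fold between the intermediate and the late array, where 2.57% of those tested were higher and 0.937% lower; the widest of these differences was that of the second Ece1 probe set, 0.575-fold.

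Saline instillation itself was compared with no treatment. Of the 6 probe sets, the shared Ace3 and Ace probe set was called lower on the sham array and none higher, where 1.92% of all probe sets tested were lower and 1.66% higher. The other 5 lay between 0.704-fold (second Ece1 probe set) and 1.49-fold (Edn1), with Adm at 0.809-fold, Ace at 1.05-fold and the first Ece1 probe set at 1.11-fold.

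The comparison of the 3 exposed with the 2 unexposed arrays is the only one with residual spread, into which the differences between phases and between sham and untreated enter. It used limma on 6188 probe sets. No probe set passed the Benjamini-Hochberg threshold of 0.05 over the whole table (0%), and 428 (6.92%) had an unadjusted p under 0.05, none of them among the 6. Edn1 averaged 8.92 ± 0.77 on exposed and 8.34 ± 0.40 on unexposed arrays (log2, SD, n = 3 and 2), a difference of 0.58 with a standard error of 0.49 and a limma adjusted p of 0.853. The differences of the other 5 lay between -0.0037 for the first Ece1 probe set (standard error 0.23, limma adjusted p 0.9999) and 0.54 for the second (standard error 0.57, limma adjusted p 0.879). Ace differed by 0.21 with a standard error of 0.17 (limma adjusted p 0.844). In all 6 probe sets the SD among the 3 exposed arrays exceeded the size of the difference between the groups, for Ace only barely (0.2085 against 0.2080).

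The genes whose profile over the 5 arrays was most like that of Edn1 were sought among 4289 probe sets, by the root mean square difference of log2 values after each profile was centred on its own mean. The nearest was Slc16a1, a monocarboxylate (lactate) transporter, at 0.097. Kiaa0040 (0.125), the potassium channel Kcnk1 (0.127), the endoplasmic reticulum chaperone calnexin, Canx (0.133), and Mat2a, an enzyme of S-adenosylmethionine synthesis (0.142), followed. Each was highest on the early array, which reflects how they were chosen. Kcnk1, for example, read 1497 in early, 649 in intermediate and 681 in late dust lung, against 666 in sham and 565 in untreated lung. Kcnk1 and Mat2a were read by 1 probe set each. For Slc16a1, Kiaa0040 and Canx the probe set with the highest mean was another, and it was not called higher. That of Canx read 7520 in early dust lung, against 8149 in sham and 9121 in untreated lung, where the like one read 1360, against 553 and 454. That of Kiaa0040 read 2863 in early dust lung, against 2519 and 2869. That of Slc16a1 read 1010 in early dust lung, against 646 in sham and 419 in untreated lung, and was highest on the early array as well. Thus the early difference depended on the probe set for Canx and Kiaa0040, and in size for Slc16a1.

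**Figure D4:**
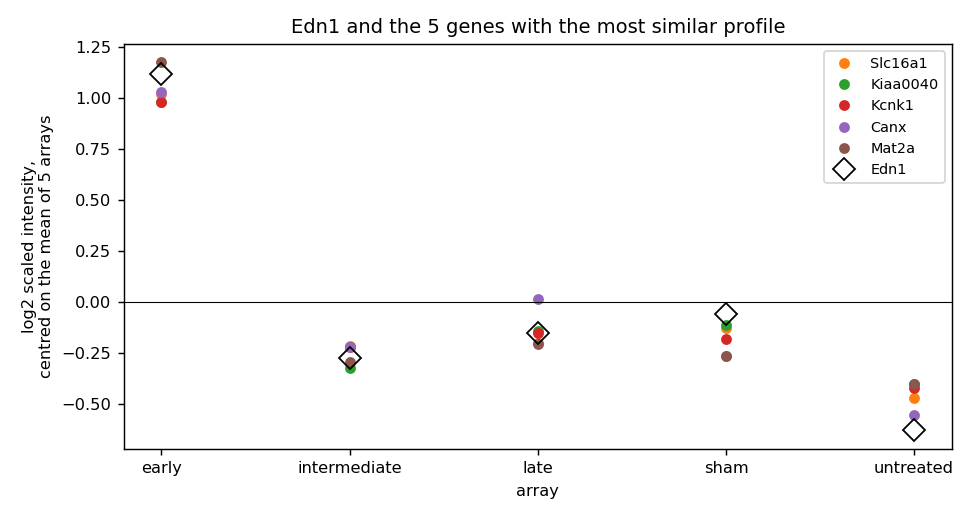
Log2 scaled intensity, centred on each probe set's own mean over the 5 arrays, for Edn1 (diamonds) and the 5 genes with the most similar profile (dots) on each array. All 6 are highest on the early array and lowest on the untreated array, which reflects how the 5 were chosen.

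The rest of the vasoactive system and the response to low oxygen were described from lists of 98 genes in all, of which 68 had a named probe set and 49 were above the floor on any array, each gene by its probe set with the highest mean. On the early array 3 of these 49 were called higher and none lower, against 2.54% and 0.3% of 3667 genes, and their median log2 difference from the averaged controls was 0.00, against -0.01 over all genes. The 3 were Calcrl, Hif1a and Hmox1. Without the hypoxia list, which holds Hif1a and Hmox1, 1 of 41 genes was called higher, and the median was -0.06. On the intermediate array 1 was called higher and none lower, against 0.873% and 0.218% of all genes, and on the late array none, against 0.6% higher and 1.04% lower.

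Among adrenomedullin and calcitonin gene-related peptide genes, 1 of 4 above the floor was called higher on the early array, against 2.54% of all genes. Calcrl, the receptor that adrenomedullin uses, read 1518 in early, 448 in intermediate and 496 in late dust lung, against 474 in sham and 476 in untreated lung, or 3.21-fold and 3.19-fold for early over the controls. The 4 other arrays were close together. A second Calcrl probe set went the opposite way: it was under the floor on the early array, against 340 in sham and 423 in untreated lung, so the direction of Calcrl is not settled by these arrays. Ackr3, a scavenging receptor known to bind adrenomedullin, had 1472 in early dust lung, against 748 in sham and 698 in untreated lung, 1.97-fold and 2.11-fold and just short of the call. Pam, the enzyme that amidates adrenomedullin, was at 6581 in early dust lung, against 7510 in sham and 7983 in untreated lung.

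The other endothelin genes showed no call. Edn2, another endothelin ligand, was under the floor on all arrays. Edn3, the third ligand, read 319 in early, 330 in intermediate and 217 in late dust lung, against 293 in untreated lung, and was under the floor in sham lung. A second Edn3 probe set was under the floor on all arrays. The endopeptidase Mme, which degrades endothelin and other peptides, read 525 in early, 293 in intermediate and 548 in late dust lung, against 366 in sham and 486 in untreated lung, and was not called. A second Mme probe set was under the floor on the early array, against 423 in sham and 337 in untreated lung.

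In the renin-angiotensin list none of 5 genes above the floor was called on a dust array. Agtr1a, an angiotensin II receptor of the type that constricts vessels, read 919 in early, 663 in intermediate and 731 in late dust lung, against 586 in sham and 849 in untreated lung. Angiotensinogen, Agt, the substrate of renin, was under the floor on the sham array alone and read 475 on the untreated array. Among kinin genes, Kng2, a kininogen from which bradykinin is cut, was the 1 called on the intermediate array, with 3248 there, against 1439 in sham and 1552 in untreated lung. It read 1941 on the early and 2137 on the late array. The call was lost with each of the other scalings, and on the deposited scale the intermediate reading was 1.97-fold and 1.90-fold the controls. No gene of the natriuretic peptide list (6 above the floor), of the prostanoid and other vasoactive list (16) or of the soluble cyclase list (3) was called on a dust array; the genes with the highest means there were Furin, Ptgis and Gucy1a1.

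Genes known to respond to low oxygen, as Edn1 and Adm do, had 2 of 8 members called higher on the early array. Over all genes 2.54% were called higher. The median log2 difference of the list was 0.46 on the early array, against -0.01 over all genes. It was also above that of all genes on the intermediate (0.27 against 0.09) and late arrays (0.30 against 0.07). Hif1a, the oxygen-regulated transcription factor subunit, read 735 in early, 280 in intermediate and 364 in late dust lung, against 289 in sham and 338 in untreated lung, a call that was lost with the floor at the 60th percentile. Heme oxygenase, Hmox1, which also answers oxidants and metals, was the other, with 15565 in early dust lung, against 4745 in sham and 1700 in untreated lung. Vegfa, a vascular growth factor, read 3517 in early dust lung, against 1962 in sham and 2810 in untreated lung, and none of its 4 probe sets was called. Slc2a1 read 3168 in early dust lung, against 2119 in sham and 2421 in untreated lung. Hk2 read 536, against 357 and 444, and Egln3 409, against 355 and 380. Arnt (332, against 253 and 340) and Pdk1 (287, against 207 and 357) were above sham but under untreated lung. None of these genes was called.

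**Figure D5:**
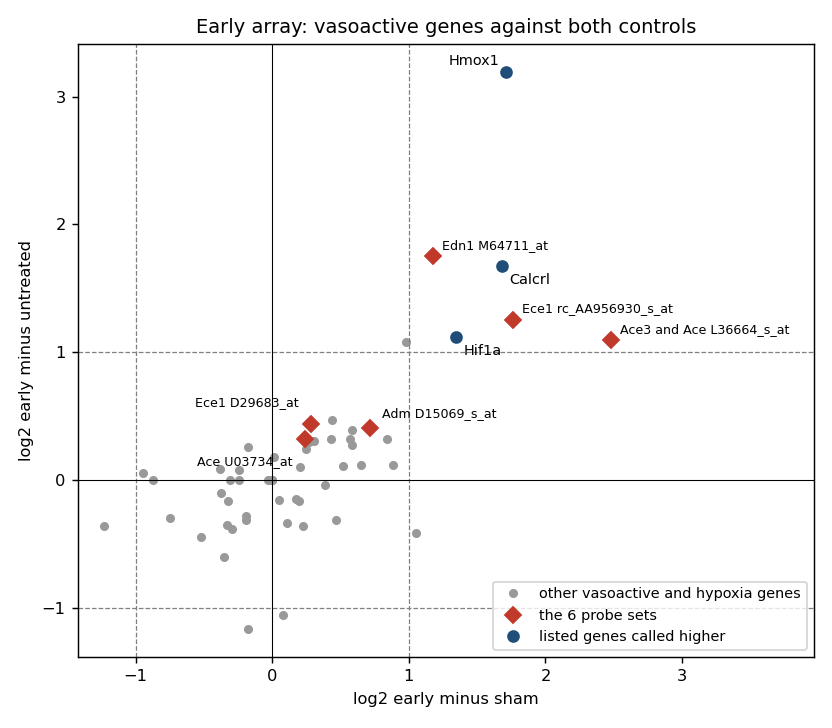
Log2 difference early minus sham (horizontal) against early minus untreated (vertical) for the 6 probe sets (diamonds) and the 49 other listed vasoactive and hypoxia genes above the floor (dots); dashed lines mark 2-fold. Edn1, the second Ece1 probe set and the shared Ace3 and Ace probe set lie in the upper right field with Calcrl, Hif1a and Hmox1.

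In pooled whole lung a change in cell numbers cannot be told apart from a change in RNA per cell. Endothelial cells make endothelin-1 and carry ACE, although epithelial cells make endothelin-1 as well. Endothelial markers had a summed scaled intensity of 7813 in early, 4404 in intermediate and 4506 in late dust lung, against 4760 in sham and 5403 in untreated lung. Of 10 named markers 9 were above the floor on any array, Vwf and S1pr1 among them on 1 array each. Sele was under it on all, but only just on the early array (169, against 34 in sham and 24 in untreated lung). On the early array 2 of the 9 were called higher, against 2.54% of all genes. They were the caveolar protein Cav1 (2655 there, against 808 and 783) and the adhesion molecule Selp. The median log2 difference of the list on that array was -0.01. The markers did not move as one: Cav1 was called lower on the intermediate array (317), and Selp lost its early call with each of the other scalings. Among the uncalled markers, Pecam1 read 1222 in early, 469 in intermediate and 641 in late dust lung, against 432 in sham and 644 in untreated lung. Icam2 went the other way, under the floor in early dust lung, against 366 in sham and 318 in untreated lung. Kdr read 1950 in early dust lung, against 1741 in sham and 2219 in untreated lung, and Thbd 711, against 714 and 819. The part of endothelial content in the early readings was not tested.

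Smooth muscle markers, all 7 above the floor, had none called by the probe set of highest mean (both further Acta2 probe sets were called higher on the early array) and sums of 18933 in early, 25326 in intermediate and 20134 in late dust lung, against 17853 in sham and 20371 in untreated lung. Of the leukocyte markers above the floor, 3 of 3 neutrophil genes (S100a8, S100a9 and Padi4) were called higher on the early array. So was 1 of 3 macrophage genes, Cd14. Over all genes 2.54% were called higher on that array. S100a9 and Padi4 were also called higher on the intermediate array, and Padi4 on the late array, where 0.873% and 0.6% of all genes were. Padi4 read 957 in early, 1432 in intermediate and 990 in late dust lung, against 413 in sham and 458 in untreated lung. The neutrophil sums were 6030 in early, 5502 in intermediate and 3631 in late dust lung, against 2662 in sham and 2001 in untreated lung. The calls of S100a9 and Cd14 were lost with each of the other scalings, and the early call of Padi4 on the deposited scale. A second Cd14 probe set was not called, at 1.74-fold the sham and 1.98-fold the untreated reading on the early array. The macrophage sum was 47260 in early dust lung, against 54117 in sham and 49598 in untreated lung, and lay mostly in Lyz2. Without Lyz2 it was 2481 in early, 1912 in intermediate and 2422 in late dust lung, against 1150 in sham and 1329 in untreated lung. The 3 genes above the floor (Fcgr2b, Cd14 and Lyz2) had a median early log2 difference of 1.03. Lyz2 itself lay under both controls on the early array, at 0.845-fold the sham and 0.928-fold the untreated reading. Fcgr2b, an immunoglobulin receptor, read 925 in early, 963 in intermediate and 1417 in late dust lung, against 367 in sham and 564 in untreated lung, and was called higher on the late array. The neutrophil marker Cxcr2 and the macrophage markers Csf1r and Itgam were under the floor on all arrays. The part of leukocytes in the early readings was not tested either. Cardiac muscle markers are known from the muscle sleeve of pulmonary veins, but their source in these pools was not tested. They had sums of 22131 in early, 41360 in intermediate and 16846 in late dust lung, against 33066 in sham and 59028 in untreated lung. Of 8 members above the floor 3 were called lower on the late array (Tnni3, Myl7 and Actn2), against 1.04% of all genes. A second probe set of Tnni3 was not called there, at 0.523-fold the sham and 0.272-fold the untreated reading. Nor was a second probe set of Myl7, at 0.546-fold and 0.277-fold. On the early array the median log2 difference of the cardiac list was -0.98, with none called, and its part in the early readings was not tested. The tissue label was borne by its markers, since all 9 alveolar and airway epithelial genes were above the floor, with the surfactant gene Sftpc between 48084 and 71970.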

How the data were processed

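The 8799 probe sets of the deposited table each have 1 linear intensity on each of 5 arrays. The sources used here do not name the software that made them. That the authors scaled the arrays is read from the values, whose mean, after 2% was trimmed from both ends, ran from 1001.38 to 1001.63. All 59 control probe sets were set aside, with use only of the beta-actin and GAPDH ones. Names come from GEO's platform annotation, with 7006 probe sets under 1 symbol, 308 under several and 1426 unnamed. The 4 measured genes were found by identifier in RefSeq's GRCr8 gene table, and promoter sequence is from RefSeq. Intensities were brought to a common median (factors 0.931 to 1.07), raised to the 40th percentile where lower, and log2 transformed (Python 3.11.15). The number of arrays limits the precision.

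Single arrays were compared by the 2-fold rule, with no test. Exposed and unexposed arrays were compared with limma 3.58.1 (lmFit, eBayes, R 4.3.3), tested on simulated data first. Its p-values reflect the spread between these pools alone. Alternatives were other scalings, floors at the 20th and 60th percentile, left-out arrays, no filter and a trended prior. The members and gene lists were chosen with earlier results of these data known. Named were all member probe sets, up to 3 called genes of a list (with none called, the gene of highest mean) and the 5 genes most like a member spanning at least 2-fold, which was Edn1. Other genes with values were chosen after these were seen: Ackr3, Pam, Edn2, Edn3, Agt, Vegfa, Slc2a1, Hk2, Pdk1, Egln3 and Arnt. So were Pecam1, Icam2, Kdr, Thbd, Vwf, S1pr1, Lyz2 and the markers under the floor.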

Additional observations from a re-analysis of the deposited data

Results flagged for a closer look

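Both Ece1 probe sets were above both controls on the early array and under both on the intermediate array, opposite directions in a pair of phases. For rc_AA956930_s_at the intermediate reading was only just under sham, at 0.935-fold, while sham was 0.704-fold untreated. With the floor at the 60th percentile its intermediate reading did not differ from either control. The log2 difference early minus intermediate was 0.66 for D29683_at and 1.86 for rc_AA956930_s_at. For rc_AA956930_s_at the late array was also above both controls, with a log2 difference intermediate minus late of -0.80. With 1 array per phase these differences were not tested. The beta-actin 5′ to 3′ ratio was highest on the early and lowest on the intermediate array, and its part was not tested.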

How the results depend on the processing

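The count of called probe sets among the 6 stayed within 1.5 times its main value under every alternative run, with 1 exception: against the untreated array alone the shared Ace3 and Ace probe set was lower on the intermediate array (log2 difference -1.22), so that this count ran from 0 to 1 over the left-out controls. The early count was 3, or 2 with 75th percentile scaling or the 60th percentile floor, each time without Edn1 (1.996-fold over sham, and at least 1.96-fold with both controls at the higher floor). Among all probe sets, early calls were 196 higher and 28 lower, against 124 and 7 with the 60th percentile floor and 278 and 124 with the 20th, so higher calls were 87.5%, 94.7% and 69.2% of them. Higher calls were 70.8% of intermediate calls, against 55.2% after quantile normalization, 51.4% with arrays scaled to their 75th percentile and 42.9% on the deposited scale. They were 37.2% of late calls, against 23.5% on the deposited scale, and 46.4% of sham calls, against 62.4% with 75th percentile scaling. The other scalings and floors were applied to the calls of list genes after the data had been seen. The limma comparison called none of the 6 in any setting run; its lowest unadjusted p among them was 0.0469, without the intermediate array (limma adjusted p at least 0.754), and over the whole table it called 3 probe sets without the filter and 0 in the other settings. No paired analysis was possible because each group had 1 array.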
